A study of Homo sapiens with 12 samples.

Results

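Long intergenic non-coding RNAs are transcripts that lie mostly between protein-coding genes, are spliced and polyadenylated much as mRNAs are, and carry no long open reading frame. Many are read in a few cell types only, some share a start region with a coding gene on the other strand, and some act on neighbouring genes while others act elsewhere in the cell. Those without a functional name carry a LINC symbol followed by a serial number. The members described here are the gene rows with such a symbol whose deposited counts averaged at least 100 over 12 libraries, which left 175 of 1242 LINC rows and of 40825 rows in all; the other 1067 LINC rows lay below that mean. Since the members were chosen by their mean count, that each one is well counted somewhere is no result. They were also chosen by symbol alone, and not all match the description above. In GENCODE 29, LINC02693 and LINC00672 are typed as protein coding and others, such as LINC00643 and LINC00888, as pseudogenes. Exons of 22 members overlap a coding gene. Just inside the threshold stood LINC02438 with a mean count of 100.5, LINC01090 with 100.83 and LINC01123 with 107.83, and just outside it LINC02327 with 99.25, LINC01606 with 99.167 and LINC02487 with 99.167.

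The 4 groups were Huh7 with lenvatinib, Huh7 with DMSO, PLC/PRF/5 with lenvatinib and PLC/PRF/5 with DMSO, with 3 replicates each. Both are established human hepatocellular carcinoma lines, labelled WT in every sample, and lenvatinib is an inhibitor of VEGF, FGF and other receptor tyrosine kinases dissolved in DMSO, the vehicle of the controls. The series concerns resistance to lenvatinib and the protein STX6. Neither the dose nor the length of exposure is given in the sources used here. Nothing says that the replicates were separate cultures, so p-values reflect only the spread among these libraries, which may be technical.

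Total counts ran from 70236175 to 75820318 per library. Of 13 hepatocyte and hepatoma markers, all 13 reached 1 FPKM (fragments per kilobase, scaled to library depth) in Huh7 with either treatment and 12 did in PLC/PRF/5, where TTR, a plasma transport protein of hepatocytes, stood at 0.196 FPKM with lenvatinib and 0.120 with DMSO. The albumin gene ALB was only just among the 12, at 2.75 FPKM with lenvatinib and 1.81 with DMSO, against 868 and 545.5 in Huh7. The biliary keratin gene KRT19 and EPCAM stood at 109 and 66.6 FPKM in Huh7 with lenvatinib and at 108 and 66.9 with DMSO, and below 1 FPKM in PLC/PRF/5. The third biliary marker, KRT7, stood at 0.486 FPKM in PLC/PRF/5 with lenvatinib and 0.470 with DMSO, and at 0.0391 in Huh7 with lenvatinib and 0.0154 with DMSO. Of 5 leukocyte markers, CD68 and LYZ reached 12.6 and 29.1 FPKM in PLC/PRF/5 with lenvatinib and 16.2 and 18.7 with DMSO, and all 5 lay below 1 FPKM in Huh7, while PTPRC lay at or below 0.0208 FPKM in all groups. Of 5 fibroblast markers, COL1A1 and COL1A2 stood at 2.10 and 0.656 FPKM in Huh7 with lenvatinib and at 3.13 and 1.06 with DMSO. The other fibroblast markers stayed below 1 FPKM. Of 3 endothelial markers, PECAM1 alone reached 1 FPKM, at 1.10 in PLC/PRF/5 with DMSO. Low counts were not spread evenly: 14082 values in the table equalled 4, against 5252 that equalled 3 and 3463 that equalled 5, and further peaks stood at 8, 12, 16, 19 and 23. Another 8842 values equalled 1 and 7863 equalled 2. The spacing of these peaks was 3.83 counts. If 1 spacing stands for 1 read, a gene with 100 counts rests on 26.1 reads with a counting error of 19.6%, and 3 reads, the floor used here, correspond to 12 counts per library. The values of 1 and 2 lie below 1 spacing and are not accounted for by this reading, which was not tested, and PCR duplicates are not accounted for, so floors cover counting error only.

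Members differed widely in level. Per transcript length, only 2 of the 175 averaged at least 10 FPKM over the 12 libraries, 71 averaged at least 1 and the median was 0.815 FPKM. Together they took 0.177 to 0.187% of all counts in Huh7 with lenvatinib and 0.174 to 0.179% with DMSO, and 0.130 to 0.136% in PLC/PRF/5 with lenvatinib and 0.117 to 0.124% with DMSO. In 136 members every library had at least 1 count.

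LINC01419, on chromosome 8 and studied as an RNA of liver tumours, had the highest FPKM, with 112 ± 4.33 in Huh7 with lenvatinib and 106 ± 1.20 with DMSO, and with 70.6 ± 3.49 in PLC/PRF/5 with lenvatinib and 72.0 ± 1.02 with DMSO (SD, n = 3). Neither lenvatinib comparison called it (edgeR quasi-likelihood test, adjusted p = 0.700 in Huh7, 0.177 in PLC/PRF/5). LINC00261 was second. On GRCh38 it runs along the minus strand of chromosome 20, from 22547671 to 22578642, near FOXA2, an endoderm and liver transcription factor, and its exons overlap another annotated gene. Its counts in replicates 1 to 3 were 29594, 34764 and 25417 in Huh7 with lenvatinib, against 18353, 18496 and 19374 with DMSO. Every lenvatinib library lay above every DMSO library in Huh7. The log2 fold change (lenvatinib over DMSO) was 0.65 ± 0.26 (standard error) with an adjusted p = 0.130.

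LINC00261 had 1015, 1050 and 997 counts in PLC/PRF/5 with lenvatinib, against 737, 1654 and 1833 with DMSO. There the groups overlapped through DMSO replicate 1, and the log2 fold change was -0.56 ± 0.27 with adjusted p = 0.223. All 4 groups share 1 estimate of each gene's spread, and that PLC/PRF/5 library kept both from passing: without it LINC00261 passed in Huh7 at 0.65 (adjusted p = 0.000495), and in the other line at -0.87 (adjusted p = 0.000595). A fit of the Huh7 libraries alone also called it higher with lenvatinib (0.65, adjusted p = 0.00370), as did DESeq2 (adjusted p = 0.0407) and filtered limma on log2(FPKM + 1) (adjusted p = 0.0367). The other 22 of 26 alternatives left LINC00261 uncalled in Huh7, as the main fit did, with adjusted p up to 0.3035. In PLC/PRF/5, 25 of 26 left it uncalled. FOXA2, named here after its values were seen, was at -0.15 ± 0.06 (adjusted p = 0.0959) in Huh7 and fell by 0.60 ± 0.06 (adjusted p = 0.000101) in PLC/PRF/5.

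The other members among the 10 of highest mean FPKM were, in order, LINC02331, LINC00888, LINC02506, LINC00294, LINC02575, LINC01963, LINC02637 and LINC00857, with means between 4.26 and 8.63 FPKM. Over 73.0% of its length LINC02637 is nearly identical to the coding gene RHEB, and LINC00294 has an exon overlap with the coding gene CSTF3. The levels of these 2 members are therefore uncertain. LINC00888, beside MCF2L2 on chromosome 3, had 7.28 FPKM in Huh7 with lenvatinib and 5.77 with DMSO, and 6.71 in PLC/PRF/5 with lenvatinib and 5.89 with DMSO, and no comparison called it. LINC01963, on chromosome 2 from 216217045 to 216220192, stood at 8.50 FPKM in Huh7 with lenvatinib and 9.48 with DMSO but at 0.382 in PLC/PRF/5 with lenvatinib and 0.740 with DMSO. LINC00294 on the other hand stood at 7.56 FPKM in PLC/PRF/5 with lenvatinib and 7.11 with DMSO, against 3.84 in Huh7 with lenvatinib and 4.30 with DMSO. LINC00857 had 5.43 FPKM in PLC/PRF/5 with lenvatinib and 6.15 with DMSO, against 3.14 and 2.31 in Huh7 with lenvatinib and with DMSO. LINC02506 and LINC02575 lay between 4.51 and 7.39 FPKM in all 4 groups.

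**Figure D1:**
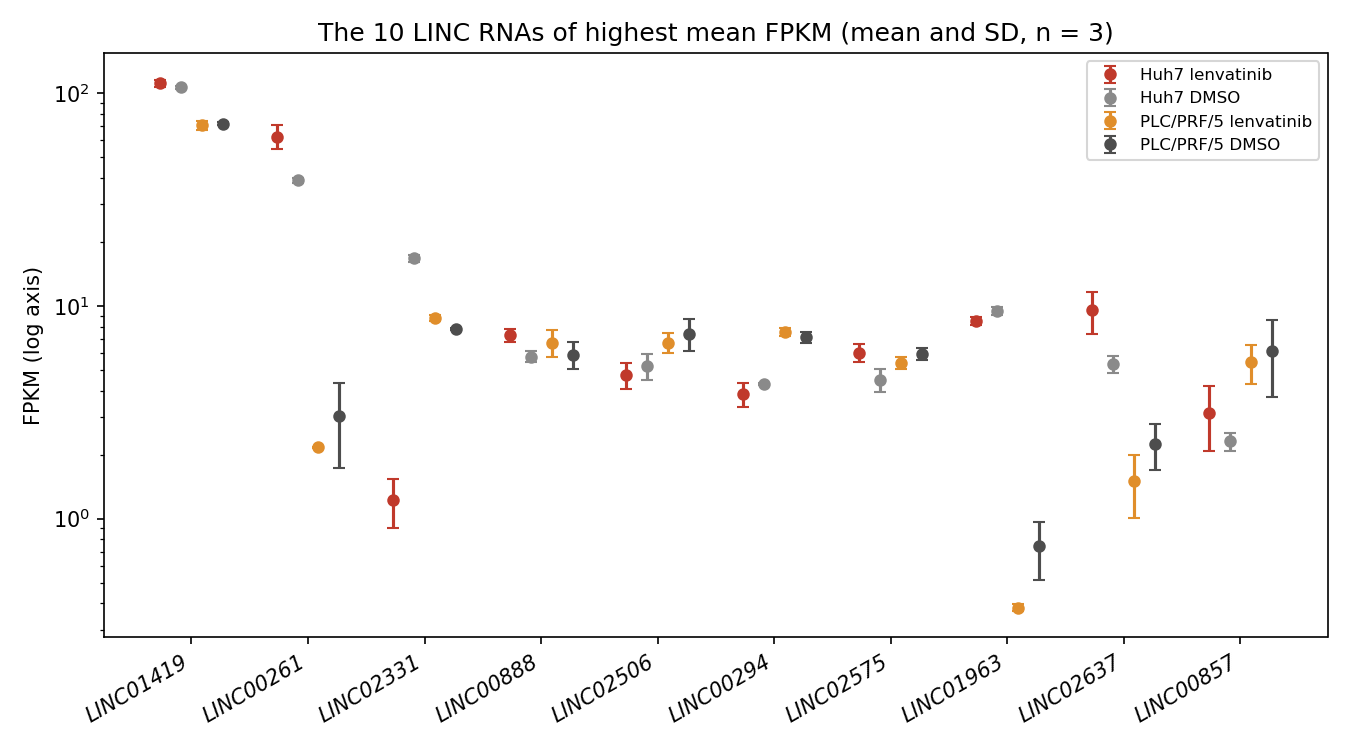
Mean FPKM (log axis) with the SD over 3 libraries for the 10 LINC RNAs of highest mean FPKM, by group. LINC01419 and LINC00261 stand above the rest, and LINC00261 and LINC01963 are lower in PLC/PRF/5 than in Huh7.

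The comparison of the lines under DMSO asks how far their basal LINC repertoires differ, and since the mean over both lines chose the members, it is given as a description. Of the 175 members, 119 were called at an adjusted p below 0.05, 48 higher and 71 lower in PLC/PRF/5 than in Huh7, against 57.5% of all 22460 genes tested (28.9% higher and 28.5% lower) and 69.4% of those with a mean count of at least 100. A mean of 100 was reached in PLC/PRF/5 only by 29 members and in Huh7 only by 46, so the choice of members favours a difference in these; 26 of the 29 were called higher and 42 of the 46 lower in PLC/PRF/5. Of the 100 that reached it in both lines, 22 were called higher and 29 lower in PLC/PRF/5, and 49 were not called.

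Several members were counted in a single line. LINC00221, within the immunoglobulin heavy chain region of chromosome 14, had 1849, 2189 and 1993 counts in PLC/PRF/5 with DMSO, against 0 in each Huh7 library with DMSO. Against the floor of 12 counts per library this was at least 173-fold higher. LINC02864 on chromosome 18 had 3058, 3272 and 2253 counts in PLC/PRF/5, against 2, 0 and 0 in Huh7. LINC01667 on chromosome 21 and LINC00839 on chromosome 10 were at 0 in all Huh7 libraries, and under DMSO were at least 76.3-fold and 60.1-fold higher in PLC/PRF/5.

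In the other direction, LINC00506 on chromosome 3 had no count in the 3 PLC/PRF/5 libraries with DMSO, against 1737, 1244 and 1446 in Huh7, which makes it at least 120-fold lower in PLC/PRF/5. LINC02421 on chromosome 12 was at least 109-fold lower by the same floor, and LINC01885 on chromosome 2 at least 77.9-fold. The bounds of LINC00643, LINC01958 and LINC01806 were 62.6-fold, 34.5-fold and 24.2-fold lower in PLC/PRF/5, and those of LINC00993 and LINC02495 were 31.9-fold and 24.6-fold higher. In all, 5 members were at 0 in every Huh7 library and 2 in every PLC/PRF/5 library.

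**Figure D2:**
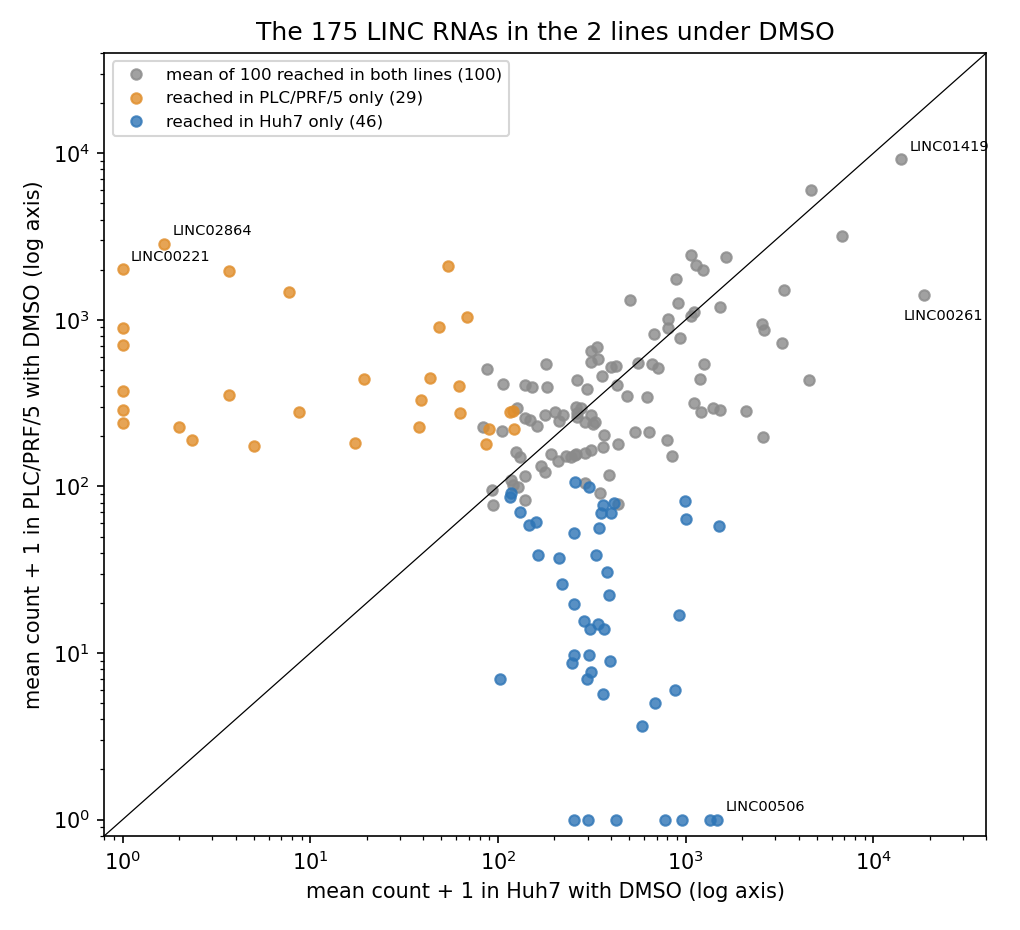
Mean count + 1 over 3 DMSO libraries in PLC/PRF/5 (vertical, log axis) against Huh7 (horizontal, log axis) for the 175 members, with the line of equality. Points on the edges are members at 0 in 1 line, and the colours show in which line or lines a mean of 100 was reached.

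Lenvatinib against DMSO asks which members change with the drug in each line. In Huh7, 19 of the 175 members passed, 6 higher and 13 lower with lenvatinib, or 10.9%, against 16.9% of all genes tested (7.67% higher and 9.21% lower) and 23.8% of the genes with a mean count of at least 100. The members' median log2 fold change was 0.016 and that of all genes 0.00084. The 3 lenvatinib and 3 DMSO libraries did not overlap in 55 members (31.4%, against 35.0% of all genes). In PLC/PRF/5, 16 members passed, 9 higher and 7 lower, or 9.14%, against 13.3% of all genes tested (5.83% higher and 7.50% lower) and 18.9% of those with a mean count of at least 100. There the median was 0.029 against -0.0054 for all genes, and 48 members did not overlap (27.4%, against 33.1%). Thus 32 members were called in at least 1 line, 143 in neither and 3 in both. The median standard error over the members was 0.33 in Huh7 and 0.32 in PLC/PRF/5. A change had to be several times its standard error to pass, and LINC00261 in Huh7 did not pass at 0.65 ± 0.26 (adjusted p = 0.130). Changes well above the median standard error can thus be missed in a typical member, and members not called are not shown to be unchanged. In these bulk samples, a smaller share of cells that make a transcript and less of it per cell cannot be told apart.

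The 3 members called in both lines were LINC00205, LINC00654 and LINC00641, and all 3 kept their calls in both lines under every alternative setting that was run. LINC00205 is read from chromosome 21, from 45288050 to 45297806 on the plus strand of GRCh38, has been studied in liver cancer, and starts 152 bases from POFUT2, a protein O-fucosyltransferase gene on the other strand. It had 5366, 6647 and 4861 counts in PLC/PRF/5 with lenvatinib, against 326, 244 and 310 with DMSO. The lowest lenvatinib library held far more than the highest DMSO library, and this was the largest rise among the called members (4.17 ± 0.18, adjusted p = 5.48e-07).

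In Huh7 LINC00205 had 2567, 2980 and 1989 counts with lenvatinib, against 1303, 1605 and 1297 with DMSO. It again rose without overlap, by less (0.82 ± 0.16, adjusted p = 0.00372), and the changes of the lines differed (PLC/PRF/5 minus Huh7, 3.36 ± 0.23, adjusted p = 6.81e-06). Under DMSO it was lower in PLC/PRF/5 than in Huh7 (-2.22 ± 0.16). POFUT2, whose start faces away from the same stretch, was at 0.015 ± 0.07 (adjusted p = 0.954) with the drug in Huh7 and at 0.0058 ± 0.07 (adjusted p = 0.992) in PLC/PRF/5.

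LINC00654 is read from the minus strand of chromosome 20 (5496067 to 5504613), with exons that overlap another annotated gene. It had 1287, 1462 and 1772 counts in Huh7 with lenvatinib, against 2367, 2854 and 2626 with DMSO, and fell there (-0.81 ± 0.13, adjusted p = 0.00113). It had 414, 479 and 475 counts in PLC/PRF/5 with lenvatinib, against 880, 860 and 859 with DMSO, and fell as well (-1.01 ± 0.13, adjusted p = 0.000605). No libraries overlapped in either line. The nearest coding start, 106413 bases away, belongs to GPCPD1, which cleaves glycerophosphocholine and which rose in both lines, in Huh7 by 0.96 ± 0.10 (adjusted p = 5.83e-05) and in PLC/PRF/5 by 0.81 ± 0.10 (adjusted p = 0.000475).

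LINC00641 is read from the minus strand of chromosome 14 (21200079 to 21206900). Its counts were 2217, 2095 and 2357 in Huh7 with lenvatinib, against 3366, 3022 and 3410 with DMSO (-0.58 ± 0.11, adjusted p = 0.00472). They were 361, 475 and 377 in PLC/PRF/5 with lenvatinib, against 703, 691 and 787 with DMSO (-0.93 ± 0.12, adjusted p = 0.000526). It fell in both lines without overlap, and the difference between the falls was not called for LINC00641 (-0.36 ± 0.16, adjusted p = 0.215) or LINC00654 (-0.20 ± 0.18, adjusted p = 0.600).

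The start regions of these members and of LINC01091, the member of largest fall with an entry in the RefSeq promoter table (GRCh38.p14) and with Huh7 counts above the floor, are shown to allow a comparison of their composition. Each is written 5′ to 3′ on the strand of the gene, and capitals mark the 50 bases from the RefSeq start on. For LINC00205 only the stretch from the first base outside POFUT2's exon is given.
LINC00205, chr21:45287899-45288101, plus strand: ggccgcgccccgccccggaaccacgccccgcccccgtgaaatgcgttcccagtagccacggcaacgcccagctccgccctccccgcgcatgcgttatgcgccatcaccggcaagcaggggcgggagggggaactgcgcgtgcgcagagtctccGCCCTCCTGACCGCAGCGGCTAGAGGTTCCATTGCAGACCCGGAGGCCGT
LINC00654, chr20:5504547-5504846, minus strand: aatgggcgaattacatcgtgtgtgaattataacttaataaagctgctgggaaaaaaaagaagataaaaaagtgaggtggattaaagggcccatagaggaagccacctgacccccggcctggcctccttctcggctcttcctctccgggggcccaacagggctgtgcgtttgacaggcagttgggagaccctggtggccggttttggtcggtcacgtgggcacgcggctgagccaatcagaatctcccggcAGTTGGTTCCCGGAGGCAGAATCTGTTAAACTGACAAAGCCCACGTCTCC
LINC00641, chr14:21206851-21207150, minus strand: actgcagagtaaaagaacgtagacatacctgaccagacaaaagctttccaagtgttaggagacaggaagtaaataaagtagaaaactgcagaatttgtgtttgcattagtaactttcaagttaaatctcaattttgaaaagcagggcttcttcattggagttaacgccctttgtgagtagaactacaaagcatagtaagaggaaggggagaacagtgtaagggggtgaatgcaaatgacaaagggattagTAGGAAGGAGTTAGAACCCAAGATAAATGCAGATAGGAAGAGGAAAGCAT
LINC01091, chr4:123649741-123650040, plus strand: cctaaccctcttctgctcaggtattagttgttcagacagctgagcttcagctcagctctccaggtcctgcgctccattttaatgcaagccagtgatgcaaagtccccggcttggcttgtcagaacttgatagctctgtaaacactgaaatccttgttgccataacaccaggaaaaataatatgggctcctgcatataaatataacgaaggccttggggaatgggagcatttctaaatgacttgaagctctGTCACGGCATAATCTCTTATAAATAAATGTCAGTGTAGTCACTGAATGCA

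G and C made up 72.4% of the LINC00205 stretch, 54.3% of the LINC00654 window, 39.0% of the LINC00641 window and 44.0% of the LINC01091 window. On both strands 4 motifs were searched over 300 bases, namely the AP-1 site TGANTCA, the ETS core CCGGAAG, the cAMP response element TGACGTCA and the composite element of ATF4 and C/EBP factors TGATGNAA. The LINC01091 window holds the composite element once, as TGATGCAA 158 bases before the start, and the LINC00205 window holds the ETS core once, 161 bases before the start and thus outside the printed stretch. LINC00654 and LINC00641 hold none of the 4. Of 110 members with a promoter entry, 12 hold the AP-1 site, 13 the ETS core, 3 the cAMP response element and 5 the composite element, against 7.76%, 10.7%, 1.98% and 3.67% of all 27305 promoters in the table. The motifs were chosen after the data were seen, and a match is a match of letters only.

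Leaving out members with a Huh7 group under the floor, the largest called changes in Huh7 were falls. LINC02331, on the minus strand of chromosome 14 (53768942 to 53850882), had 313, 194 and 223 counts in Huh7 with lenvatinib, against 3256, 3266 and 3544 with DMSO. Its PLC/PRF/5 libraries held 1767, 1711 and 1674 counts with lenvatinib, against 1562, 1445 and 1548 with DMSO. Thus the Huh7 libraries with lenvatinib stood apart from the other 9. LINC02331 fell in Huh7 (-3.80 ± 0.16, adjusted p = 7.89e-08), was at 0.09 ± 0.14 in PLC/PRF/5 (adjusted p = 0.775), and the difference passed (3.90 ± 0.21, adjusted p = 1.89e-06). The nearest coding start, 107879 bases away, is that of BMP4, a secreted growth factor, which fell in Huh7 too (-1.53 ± 0.28, adjusted p = 0.00275) and was at -0.59 ± 0.27 in PLC/PRF/5 (adjusted p = 0.199).

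LINC01091, on chromosome 4 from 123650267 to 123930406 on the plus strand, had 32, 13 and 31 counts in Huh7 with lenvatinib, against 270, 284 and 276 with DMSO. The PLC/PRF/5 libraries held 333, 331 and 226 counts with lenvatinib, against 264, 322 and 294 with DMSO. It fell in Huh7 (-3.46 ± 0.34, adjusted p = 4.17e-05), the PLC/PRF/5 libraries overlapped (-0.08 ± 0.30, adjusted p = 0.938), and the difference passed (3.38 ± 0.45, adjusted p = 0.000738). Its nearest coding start, 253472 bases away on the same strand, is that of SPRY1, which dampens signals from receptor tyrosine kinases. SPRY1 averaged 2.60 ± 1.46 TMM-scaled CPM (counts relative to library size) in the Huh7 libraries with lenvatinib and 22.8 ± 6.52 in those with DMSO, and fell (-3.13 ± 0.44, adjusted p = 0.000612). Its change in PLC/PRF/5 was -1.12 ± 0.40 (adjusted p = 0.101).

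LINC02421, on chromosome 12 from 67709047 to 67729475, had 225, 198 and 210 counts in Huh7 with lenvatinib, against 1293, 1451 and 1306 with DMSO, and fell (-2.70 ± 0.38, adjusted p = 0.00111). Its neighbour DYRK2, a protein kinase gene with a start 81137 bases away on the other strand, fell with the drug in Huh7 (-1.01 ± 0.07, adjusted p = 3.15e-06) but rose in PLC/PRF/5 (0.32 ± 0.07, adjusted p = 0.0110), where LINC02421 lay at or below 3 counts in every library. LINC02593, on chromosome 1 from 916865 to 921016, had 378, 309 and 241 counts in Huh7 with lenvatinib, against 890, 973 and 1117 with DMSO (-1.70 ± 0.39, adjusted p = 0.0114). SAMD11, whose start is 2912 bases away on the other strand, changed by the same amount in Huh7 (-1.70 ± 0.35, adjusted p = 0.00650) and, like LINC02593 (0.12 ± 0.40, adjusted p = 0.917), was not called in PLC/PRF/5 (0.13 ± 0.35, adjusted p = 0.896).

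LINC00643, on chromosome 14 from 62114353 to 62130962, had 15, 37 and 0 counts in Huh7 with lenvatinib, against 637, 838 and 852 with DMSO. It fell (-5.50 ± 1.23, adjusted p = 0.0159), but the call was lost without lenvatinib replicate 1 (-5.41, adjusted p = 0.0619) and with no filter on low counts (adjusted p = 0.0537). It had 5, 19 and 0 counts in PLC/PRF/5 with lenvatinib and 0 with DMSO, close to the floor. LINC01948, on chromosome 5, had 148, 143 and 99 counts in Huh7 with lenvatinib, against 245, 324 and 369 with DMSO (-1.28 ± 0.30, adjusted p = 0.0116). LINC02840, on chromosome 6, had 28, 39 and 76 counts with lenvatinib, against 125, 98 and 122 with DMSO (-1.29 ± 0.34, adjusted p = 0.0249), and leaving out any 1 of 4 Huh7 libraries ended that call: DMSO replicates 1 and 3 (adjusted p = 0.0723 and 0.0613) and lenvatinib replicates 1 and 2 (0.0736 and 0.0851).

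LINC00664 passed the test in Huh7 as well, with 0 counts in each lenvatinib library, against 4 in each DMSO library. Both groups lie under the floor, so no fold is given, and dividing all counts by their spacing ended the call (adjusted p = 0.151). The remaining falls in Huh7 were those of LINC00997 (-1.01), LINC00355 (-0.82) and LINC00623 (-0.62), named after their values were seen. The call of LINC00997 was lost in 5 of the 12 omissions, in which each library was left out in turn (adjusted p between 0.0639 and 0.114) and that of LINC00623 in 4 (0.0617 to 0.0901), while LINC00355 passed in all 12. LINC00623 has a near-identical copy in LINC01145, so its counts are uncertain.

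**Figure D3:**
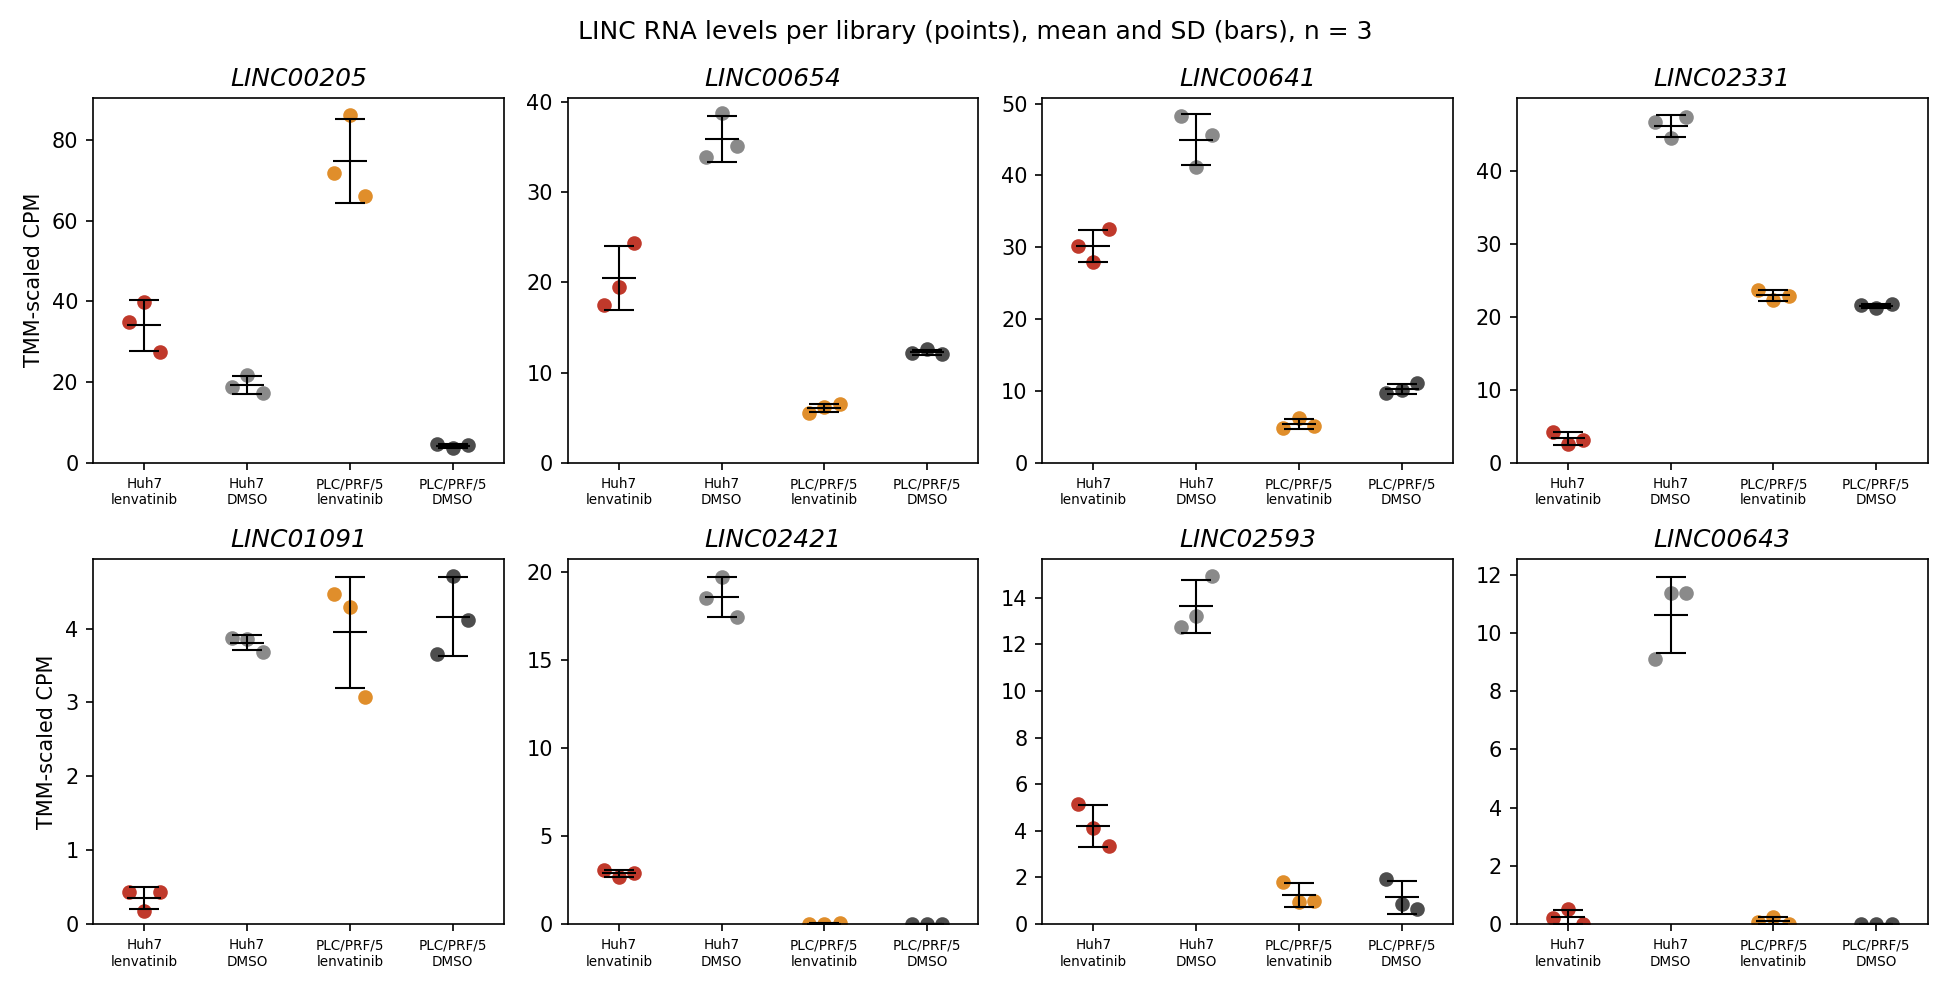
TMM-scaled CPM in each library (points) with mean and SD (n = 3) for 8 members, by line and treatment. LINC00205 is higher and LINC00654 and LINC00641 are lower with lenvatinib in both lines, and the other 5 are lower with lenvatinib in Huh7.

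Apart from that of LINC00513, whose DMSO group lay under the floor, the called rises in Huh7 were smaller than the largest falls. LINC01137, divergent from ZC3H12A, an endoribonuclease gene that starts 141 bases away, had 167, 189 and 261 counts with lenvatinib, against 101, 89 and 128 with DMSO (0.94 ± 0.24, adjusted p = 0.0191). ZC3H12A itself was at 0.03 ± 0.14 in Huh7 (adjusted p = 0.944) and fell in PLC/PRF/5 (-0.86 ± 0.14, adjusted p = 0.00248), where LINC01137 was at 0.31 ± 0.23 (adjusted p = 0.462). LINC00511, on chromosome 17 and studied in several cancers, had 1629, 1199 and 1570 counts with lenvatinib, against 783, 638 and 968 with DMSO (0.86 ± 0.25, adjusted p = 0.0342). LINC02604 rose by 0.70 ± 0.22 (adjusted p = 0.0484) and LINC00863 by 0.67 ± 0.19 (adjusted p = 0.0305).

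All of these rises in Huh7 other than that of LINC00205 depended on single libraries. LINC01137 lost its call without DMSO replicate 1 or 2 or lenvatinib replicate 3 (adjusted p = 0.0557, 0.0731 and 0.0649), and LINC00511 without DMSO replicate 1 or 2 or lenvatinib replicate 1 or 3 (0.0820, 0.122, 0.105 and 0.0874). LINC00863 lost it without DMSO replicate 3 or lenvatinib replicate 2 or 3 (0.0604, 0.0592 and 0.0949). LINC02604 lost it in 9 of the 12 omissions, with adjusted p between 0.0613 and 0.169, PLC/PRF/5 libraries among those left out. LINC00513 had 33, 26 and 15 counts with lenvatinib, against 0, 0 and 8 with DMSO, so the DMSO group lay under the floor; its call was lost in 4 omissions (adjusted p between 0.0565 and 0.0731).

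After that of LINC00205, the rises in PLC/PRF/5 with the highest log2 fold changes included 3 weakly counted members. LINC00842, on chromosome 10, had 24, 30 and 45 counts with lenvatinib, against 0, 2 and 6 with DMSO, where the DMSO group lay under the floor (adjusted p = 0.00495). LINC00886, on chromosome 3, had 139, 73 and 56 counts with lenvatinib, against 13, 14 and 29 with DMSO (2.17 ± 0.43, adjusted p = 0.00700). LINC01842, on chromosome 19, had 82, 85 and 79 counts with lenvatinib, against 18, 16 and 41 with DMSO (1.63 ± 0.37, adjusted p = 0.0142), and lost the call without DMSO replicate 1 (1.43, adjusted p = 0.0537). These groups did not overlap, but none of the 3 members averaged 100 counts in either PLC/PRF/5 group. With limma on log2(FPKM + 1), filtered and not, the calls of LINC00842 (adjusted p = 0.443 and 0.636) and LINC00886 (0.145 and 0.299) were lost. A fit of the PLC/PRF/5 libraries alone lost those of LINC00842 (adjusted p = 0.1025) and LINC01842 (0.0703).

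LINC01123 had 63, 40 and 30 counts with lenvatinib, against 0, 14 and 4 with DMSO (adjusted p = 0.0452); its sequence is shared with a near-identical copy, and 11 of the 12 omissions ended its call (adjusted p between 0.0551 and 0.129). LINC00467, reported to encode a small mitochondrial peptide, had 532, 468 and 464 counts with lenvatinib, against 251, 293 and 293 with DMSO, and rose in PLC/PRF/5 (0.72 ± 0.19, adjusted p = 0.0328). Without any 1 of the 6 PLC/PRF/5 libraries its adjusted p lay between 0.0524 and 0.108. LINC01184 had 1416, 1378 and 1403 counts with lenvatinib, against 1057, 794 and 829 with DMSO (0.56 ± 0.17, adjusted p = 0.0469). It starts 594 bases from SLC12A2, a cotransporter of sodium, potassium and chloride on the other strand, which fell (-0.99 ± 0.09, adjusted p = 6.07e-05). Exons of LINC01184 overlap the coding gene CCDC192, so its counts are uncertain. The call of LINC01184 was lost in 9 of the 12 omissions (adjusted p between 0.0505 and 0.135) and that of LINC01003 (0.83 ± 0.25, adjusted p = 0.0483) in 10 (0.0555 to 0.139). LINC00869, at 0.41 and with a near-identical copy, completes the 9 rises and lost its call in 9 omissions (adjusted p between 0.0564 and 0.128).

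Among the falls in PLC/PRF/5, LINC01963 had 105, 106 and 96 counts with lenvatinib, against 273, 155 and 166 with DMSO (-1.03 ± 0.18, adjusted p = 0.00311). Its neighbour XRCC5, which encodes a subunit of the Ku DNA repair complex and starts 109581 bases away on the same strand, fell as well (-0.39 ± 0.06, adjusted p = 0.00164). XRCC5 also fell in Huh7 (-0.49 ± 0.06, adjusted p = 0.000192), where LINC01963 was not called. LINC02432, on chromosome 4, had 230, 232 and 283 counts with lenvatinib, against 376, 469 and 450 with DMSO (-0.88 ± 0.14, adjusted p = 0.00171), while ZNF330, the nearest coding gene, rose (0.42 ± 0.11, adjusted p = 0.0316). LINC00884, on chromosome 3, had 5, 10 and 5 counts with lenvatinib, against 19, 44 and 46 with DMSO (adjusted p = 0.00375), so the lenvatinib group lay under the floor. A fit of the PLC/PRF/5 libraries alone lost the calls of LINC01963 (adjusted p = 0.0572) and LINC00884 (0.0826). Limma on log2(FPKM + 1) without a filter lost those of LINC02432 (adjusted p = 0.0679) and LINC00884 (0.610).

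LINC00993, on chromosome 10, had 216, 169 and 149 counts with lenvatinib, against 334, 394 and 388 with DMSO (-1.15 ± 0.30, adjusted p = 0.0473), and was at 0 in every Huh7 library. LINC00648, on chromosome 14, had 191, 208 and 166 counts with lenvatinib, against 275, 429 and 328 with DMSO (-0.96 ± 0.27, adjusted p = 0.0386). Both fell without overlap, yet 6 of the 12 omissions ended the call of LINC00993 (adjusted p between 0.0740 and 0.146) and 7 that of LINC00648 (0.0525 to 0.132).

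**Figure D4:**
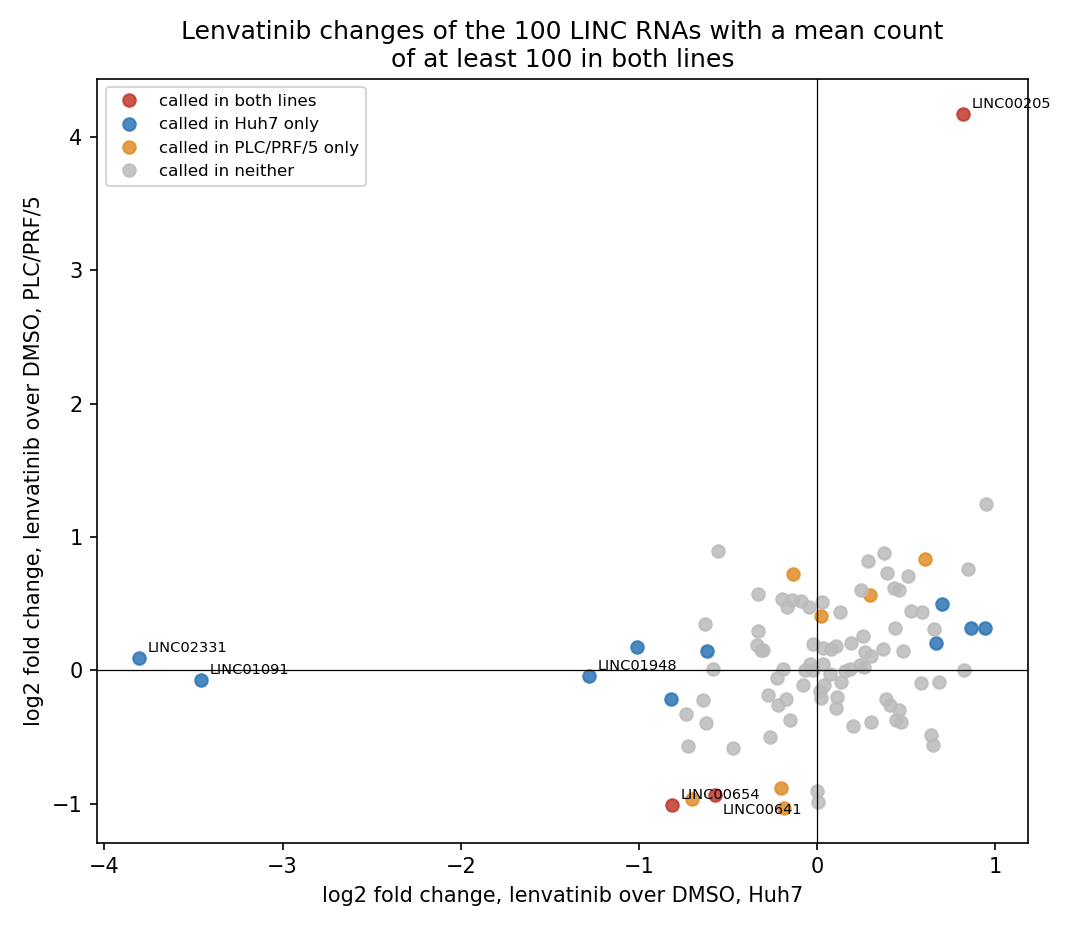
Log2 fold change with lenvatinib over DMSO in PLC/PRF/5 (vertical) against Huh7 (horizontal) for the 100 members that reached a mean of 100 in both lines, coloured by where they were called. LINC00205 lies at the upper right, LINC00654 and LINC00641 lie at the lower left, and LINC02331 and LINC01091 lie far to the left near 0 in PLC/PRF/5.

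Over those 100 members the changes in PLC/PRF/5 and Huh7 had a Pearson correlation of 0.254 and a Spearman correlation of 0.317, a description across genes, which are not independent replicates. The difference of the changes (PLC/PRF/5 minus Huh7) passed in 11 of the 175 members, 7 higher and 4 lower, or 6.29%, against 9.41% of all genes tested (5.03% higher and 4.38% lower) and 13.4% of those with a mean count of at least 100. LINC00205, LINC02331 and LINC01091 rested on counts above the floor in every library and kept these calls under every alternative that was run. For LINC01842 the difference was 2.0 ± 0.51 (adjusted p = 0.0297), lost in 9 of the 12 omissions (adjusted p between 0.0503 and 0.0727). It was, for LINC02432, -0.68 ± 0.19 (adjusted p = 0.0449) and, for LINC02637, which has a near-identical copy, -1.47 ± 0.41 (adjusted p = 0.0479), and these too were lost in 9 omissions each. LINC00643, LINC00664, LINC00842, LINC00513 and LINC00884 made up the other 5, each with at least 1 group under the floor.

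Position was then compared with the calls. All 175 members were placed on GRCh38, 160 by their GENCODE 29 name and 15 through a table of older names. A start within 2000 bases of a coding gene's start, on the other strand and pointing away, was found for 11 members. Of these divergent members 2 rose in Huh7 (LINC00205 and LINC01137) and 2 in PLC/PRF/5 (LINC00205 and LINC01184), and none fell, and the coding partner was called higher in none of the 4 cases. Another 62 had exons that overlap another gene, of which 2 rose and 4 fell in Huh7 and 3 rose and 2 fell in PLC/PRF/5. The divergent members LINC01184 and LINC01089 also had exons that overlap a coding gene, CCDC192 and RHOF. Since the counting is not stated to use strand, reads of overlapping genes cannot be told apart. Of the remaining 102 members, 2 rose and 9 fell in Huh7, and 4 rose and 5 fell in PLC/PRF/5. For comparison, 16.9% of all genes tested were called in Huh7 (7.67% higher) and 13.3% in PLC/PRF/5 (5.83% higher). Over all members the shares called were 10.9% and 9.14%. The counts by position, above all those of the 11 divergent members, are too small to set apart from these shares and were not tested. A near-identical copy elsewhere (at least 95% identity over more than 50% of the length) was found for 16 members.

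The nearest coding gene was tested for 8 of the 13 members that fell in Huh7. It fell with 5 of them (LINC02331, LINC01091, LINC02421, LINC02593 and LINC00997, the last beside KBTBD2), rose with 1 (LINC00654) and was not called with 2, so 75.0% of these neighbours were called. Among the 125 members with a tested neighbour that were not called in Huh7, 28.8% of the neighbours were called, 11 higher and 25 lower. Of the 6 members that rose in Huh7, 5 had a tested neighbour, and none of these neighbours was called. The neighbour in PLC/PRF/5 rose with 2 and fell with 1 of the 6 members that fell and had a tested neighbour (50.0% called), and fell with 2 of the 7 that rose and had one (28.6%), against 24.0% of neighbours called among 125 members not called in that line. Exons of the called members LINC00863, LINC00664 and LINC00884 overlap those of their neighbours NUTM2D, ZNF429 and ATP13A3. Member and neighbour may share reads in these pairs. The counts of neighbours are small and were not tested.

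**Figure D5:**
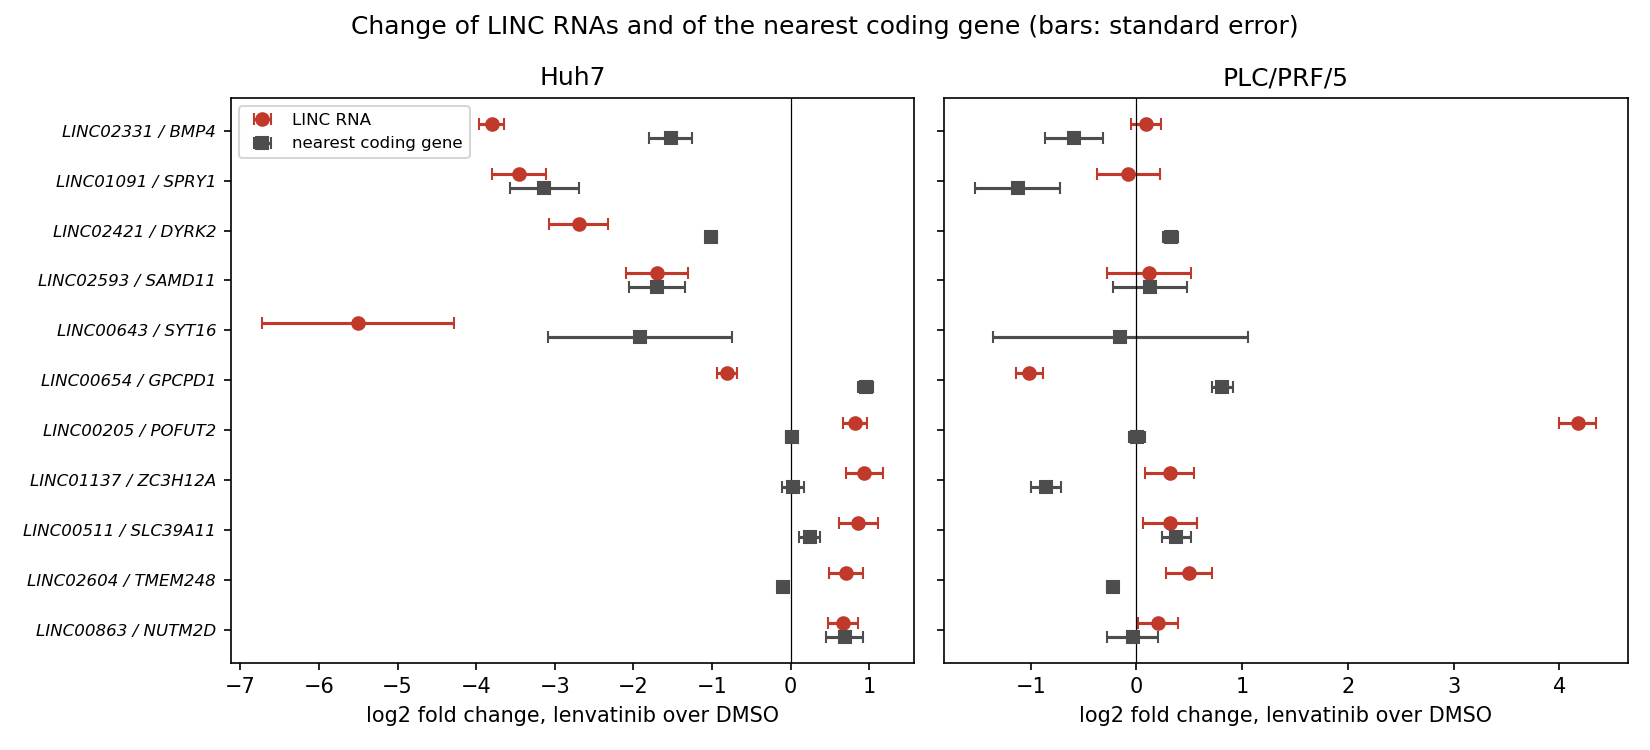
Log2 fold change with lenvatinib over DMSO, with standard errors, for 11 of the members called in Huh7 (circles) and the coding gene of the nearest start (squares), in Huh7 (left) and PLC/PRF/5 (right); the horizontal scales differ. LINC02331, LINC01091, LINC02421 and LINC02593 lie left of 0 in Huh7 together with their neighbours, LINC00654 and GPCPD1 lie on opposite sides in both lines, and LINC02421 and LINC00643 are left out in PLC/PRF/5, where they lay close to the floor.

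Lists of related genes give the setting, to be read beside the 16.9% of all genes tested that were called in Huh7 and the 13.3% in PLC/PRF/5. Of 15 LINC RNAs studied in hepatocellular carcinoma, 10 were tested and 8 are members; of the 10, LINC00205 alone rose and none fell in Huh7, and LINC00205 and LINC00467 rose and none fell in PLC/PRF/5, with medians of -0.018 and -0.011. Those of its members not yet described, LINC00665, LINC00958, LINC01089 and LINC01138, were not called in either line. LINC00958 stood at 2.89 FPKM in Huh7 with lenvatinib and 2.98 with DMSO, and at 0.129 in PLC/PRF/5 with lenvatinib and 0.113 with DMSO. Of 6 liver-enriched LINC RNAs, 3 were tested, none reached a mean of 100, and none was called in either lenvatinib comparison. Of 9 LINC RNAs reported to encode a small peptide, LINC00467 and LINC00665 were tested, and LINC00467 rose in PLC/PRF/5. Of 5 listed as beside a lineage or stem cell gene, LINC00261 and LINC00643 were tested, and LINC00643 fell in Huh7. The coding start nearest to LINC00643 was that of SYT16, 302379 bases away, so the positions used here do not bear out that label for it.

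Among 17 coding genes that report activity of the ERK kinase pathway, 13 fell and 2 rose in Huh7 (median -2.46), and 7 fell and none rose in PLC/PRF/5 (median -0.45). Among 12 coding genes of the response to the stress factor ATF4, 9 rose and 1 fell in Huh7 (median 0.78), and 9 rose and none fell in PLC/PRF/5 (median 0.74). Of all genes tested, 7.67% rose and 9.21% fell in Huh7, and 5.83% rose and 7.50% fell in PLC/PRF/5. The comparisons with members are side by side only: both lists were put together with results of these libraries known.

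Some members varied by library rather than by group. A gap of at least 4-fold between the highest and lowest of 3 replicates, with the highest at 100 counts or more, was found in 22 groups of 16 members, a definition made after the data were seen. LINC00526 showed it in all 4 groups, with 353, 338 and 7 counts in Huh7 with lenvatinib, against 16, 365 and 7 with DMSO. It had 64, 0 and 231 counts in PLC/PRF/5 with lenvatinib, against 0, 109 and 99 with DMSO. LINC02693 had 5057, 609 and 4457 counts in PLC/PRF/5 with lenvatinib, against 4509, 4294 and 777 with DMSO, so that 1 library of each group was low. LINC00342, which has a near-identical copy, had 254, 1495 and 1460 counts in Huh7 with DMSO. Means of such members describe no library well, and the origin of the gaps was not tested.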

How the data were processed

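RNA-seq of 12 libraries of Huh7 and PLC/PRF/5 cells was used. Per the labels, mRNA was purified and read as single ends on a BGIseq500. HISAT2 and hg19 are named in the submitters' processing notes. The counting program, the annotation and any strand setting were not given in the sources used here. Each gene row has, per the file headers, 1 count and 1 FPKM value for every library, both made by the authors. Another 12 columns, of another cell line, were not used.

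The deposited counts were tested with edgeR 4.0.16 (quasi-likelihood F test, robust, TMM factors, 1 coefficient per group) in R 4.3.3. Rows needed a mean count of at least 10, which 22460 had, and p-values were adjusted over all of these by Benjamini-Hochberg, with a threshold of 0.05; the 175 members were read from that fit. Every adjusted p in the text is from this test unless another is named. A standard error is the log2 fold change divided by the root of its F value. Levels between genes are the authors' FPKM. In members with at least 50 counts, FPKM over CPM stayed within 0.935 to 1.03 times each member's median ratio (1769 values).

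Named members were the 10 of highest mean FPKM, up to 8 each way per lenvatinib comparison with no overlap, up to 6 each way for the difference and for the lines, members called in both lines, listed members, and those at the threshold. Members and lists were chosen with earlier results of these data known; the count spacing, floor, gap definition, motifs and FOXA2 were chosen after the data were seen. Positions come from GENCODE 29 (GRCh38, not the build of the submitters), and near-identical copies were found with BLAST 2.17.0. Scripts were tested on simulated data. Alternatives were run with DESeq2 1.42.0 and limma 3.58.1. Other tools were Python 3.11.15, pandas 2.3.3, numpy 2.4.6, scipy 1.17.1 and matplotlib 3.10.9.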

Additional observations from a re-analysis of the deposited data

Results flagged for a closer look

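The lenvatinib changes differed between the lines, by the interaction test of edgeR (PLC/PRF/5 minus Huh7, log2 scale, adjusted p below 0.05), in 11 members. The difference was 3.90 for LINC02331, 3.38 for LINC01091 and 3.36 for LINC00205, each with counts above the floor of 12 per library in all groups. It was 2.0 for LINC01842, -0.68 for LINC02432 and -1.47 for LINC02637; all 3 calls were lost in 9 of 12 omissions of a single library each (adjusted p up to 0.0727 for LINC01842, 0.108 for LINC02432 and 0.116 for LINC02637). The values 11.47 for LINC00643, 5.70 for LINC00664, 4.64 for LINC00842, -2.83 for LINC00884 and -3.92 for LINC00513 each involve a group at or under the floor, so their size depends on the prior count of the fit and is no bound. The difference of LINC00643 was lost without Huh7 DMSO replicate 2 or 3, Huh7 lenvatinib replicate 1 or PLC/PRF/5 lenvatinib replicate 2 (adjusted p = 0.0514, 0.0508, 0.0577 and 0.115), and that of LINC00513 in 10 of 12 omissions (up to 0.0893).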

How the results depend on the processing

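Depth limits the low members most, since 100 counts may rest on 26.1 reads. The number of members called in Huh7 (19) lay between 13 and 20 with 1 library left out and between 13 and 27 under the other settings. In PLC/PRF/5 (16) it was 8 with limma on log2(FPKM + 1) without a filter, lay between 9 and 14 with 1 library left out (9 without lenvatinib replicate 1), and was 23 with DESeq2. For the difference between the lines (11) it was 17 with limma on log2(FPKM + 1), 26 with DESeq2, and lay between 7 and 13 with 1 library left out (7 without replicate 1 of Huh7 with DMSO or with lenvatinib). For the lines under DMSO (119) it lay between 86 and 125. Counts divided by their spacing, an alternative chosen after the data were seen, gave 19, 16, 11 and 123. Of the 46 calls of members in the lenvatinib comparisons and their difference, 19 were lost with limma on log2(FPKM + 1) without a filter, 12 with the replicate block, 10 with no filter on low counts, 4 with library totals alone and 2 with counts divided by their spacing. No call was lost with DESeq2 or RLE factors, and 13 of 35 were lost in fits of the compared groups alone. Of the 34 calls that could be compared after a filter on FPKM, 6 were lost with limma on log2(FPKM + 1) and 1 with log2(FPKM + 0.1).

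Replicate numbers did not pair the libraries (correlations of deviations from -0.0134 to 0.0276). With the replicate number as a block, 18, 11, 10 and 120 members were called in Huh7, PLC/PRF/5, the difference and the lines.

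Some uncalled log2 changes near 0 changed sign, and the cause was not tested. In PLC/PRF/5, LINC00665 was at -0.000757 with a mean count of at least 50 and at -0.046 with the replicate block, and between -0.21 and 0.19 with 1 library left out. LINC01138 was at 0.050 with no TMM factors, at 0.023 with limma on log2(FPKM + 1), filtered or not, and at 0.043 with log2(FPKM + 0.1), and between -0.12 and 0.11 with 1 library left out. With 1 library left out, LINC00294 lay between -0.035 and 0.055 and LINC00958 between -0.29 and 0.74 in PLC/PRF/5, while in Huh7 LINC00467 lay between -0.28 and 0.022, LINC00958 between -0.18 and 0.021 and LINC01089 between -0.41 and 0.029.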
